A study of Mus musculus with 1 sample.

Results

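The ribosomal protein genes and their paralogs were taken by symbol, as every listed gene whose name begins with Rpl or Rps followed by a digit, together with Rplp0, Rplp1, Rplp2 and Rpsa, leaving out the Rps6k kinases and names with -ps. This gave 87 of the 27998 listed genes, 53 with Rpl names and 34 with Rps names. One library of testis cells was analysed, made from C57BL/6 pups at postnatal day 8 that were wild-type for Zscan2, on the Chromium platform with v2 chemistry. Cells of 3 mice were combined in equal numbers after selection for THY1, a cell surface protein of early spermatogonia, and some cells of the unselected suspension were added back. The pool is 1 sample, so no difference between mice can be seen, the makeup of the cells follows from the selection, and the Zscan2 knockout library was not analysed here. A count is 1 unique molecular identifier (UMI), which stands for 1 captured RNA molecule. Every interval below is an exact 95% interval and covers counting error alone, and no p-value was computed because cells of 1 pool are not replicates.

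The cytoplasmic ribosome has a large subunit, which joins amino acids, and a small subunit, which reads the messenger RNA. Growing cells make their proteins in matched amounts, mostly from single genes, and the mRNAs are among the most abundant in the cell. A few of the proteins have another expressed gene, a paralog. Several ribosomal protein genes lie on the X chromosome, which is silenced in male germ cells during meiosis, and some of their autosomal paralogs, Rpl39l and Rpl10l among them, are known for expression in the testis. In the seminiferous tubule, spermatogonial stem cells (SSCs) give rise to progenitors and then to differentiating spermatogonia, beside the Sertoli cells that nurse them.

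The first pair the results turn on is Rpl39 and Rpl39l. Rpl39 (ENSMUSG00000079641, chrX:37082520-37085402, minus strand, build GRCm38) encodes a small protein lining the exit tunnel of the large subunit, and Rpl39l (ENSMUSG00000039209, chr16:10170226-10174911, plus strand) is its autosomal paralog. The transcripts used have 3 exons each and a coding sequence of 153 bases without the stop codon, of which 130 are the same (85.0%). The coding sequences, from GENCODE, are given 5′ to 3′ to show how far the genes can be told apart, with the 23 bases that differ in capitals.
Rpl39: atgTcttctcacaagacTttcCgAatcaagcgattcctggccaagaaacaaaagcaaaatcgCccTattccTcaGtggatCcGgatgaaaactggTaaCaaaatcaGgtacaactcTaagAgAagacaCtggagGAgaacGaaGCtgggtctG
Rpl39l: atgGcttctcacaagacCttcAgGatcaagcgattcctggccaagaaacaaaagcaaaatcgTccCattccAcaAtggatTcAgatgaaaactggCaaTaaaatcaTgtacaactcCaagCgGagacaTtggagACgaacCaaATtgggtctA
None of the stretches of 50 bases in the last 400 bases of the Rpl39l transcript occurs in another annotated gene, against 25.9% of those of Rpl39. The reads of such a library come from this end of the transcript.

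A further pair is Rps27 and Rps27l, which encode variants of 1 small subunit protein. Rps27 (ENSMUSG00000090733, chr3:90212522-90213651, minus strand) is the canonical gene and Rps27l (ENSMUSG00000036781, chr9:66946086-66949516, plus strand) is known as a target of p53. Their coding sequences have 252 bases each, of which 60 differ, again in capitals, shown since the balance of this pair differed between germ stages.
Rps27: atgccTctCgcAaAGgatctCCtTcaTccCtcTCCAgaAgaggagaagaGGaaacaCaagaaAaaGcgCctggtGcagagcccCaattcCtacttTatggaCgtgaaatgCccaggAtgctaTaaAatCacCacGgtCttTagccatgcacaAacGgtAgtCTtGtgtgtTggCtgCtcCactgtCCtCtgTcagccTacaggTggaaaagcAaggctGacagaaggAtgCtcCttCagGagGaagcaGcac
Rps27l: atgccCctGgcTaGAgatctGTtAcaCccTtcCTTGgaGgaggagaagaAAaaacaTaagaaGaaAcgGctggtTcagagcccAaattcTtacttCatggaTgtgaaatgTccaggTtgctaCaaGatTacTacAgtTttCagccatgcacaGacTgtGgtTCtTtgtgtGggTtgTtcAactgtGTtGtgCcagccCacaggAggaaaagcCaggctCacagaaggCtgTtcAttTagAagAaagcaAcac
Another copy, Rps27rt (ENSMUSG00000050621, chr9:114982366-114982739, minus strand), has a coding sequence identical to that of Rps27 over all 252 bases. Of the 50-base stretches at its end, 91.1% occur in another gene, so that its counts cannot be told from those of Rps27 with certainty.

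The library held 11358045 UMIs over 970 barcodes, with a median of 9115 UMIs per barcode and a range of 2655 to 44915. After filtering, 920 cells remained, 324 of them germ cells and 596 somatic. Clusters were built without the ribosomal protein genes among the variable genes and were named from marker lists. They held 133 differentiating-like, 78 progenitor-like and 113 SSC-like germ cells, and, among somatic cells, 35 macrophage-like, 26 T cell-like, 94 peritubular myoid-like, 186 stromal-like and 255 Sertoli-like cells. The 10 leading genes of the SSC-like and of the progenitor-like cluster held no marker of their own class, so these names rest on the marker lists' mean expression alone, and the T cell-like name is weak, since its markers scored 0.45 against 0.24 for myoid markers. A shallow germ cluster of 62 cells (median 3905 UMIs, mitochondrial share 2.72%) contributed 51 of the differentiating-like, 7 of the progenitor-like and 4 of the SSC-like cells, and 1 progenitor-like barcode carried 10102 hemoglobin UMIs. The values of the differentiating-like class that the results turn on are also given without the shallow cells.

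The ribosomal protein genes together took a large part of the RNA of each cell, and the part differed between cell types. They held 2963163 of 10914002 UMIs in the kept cells, or 27.2% (interval 27.1 to 27.2%). Their share was 31.7% of the UMIs of progenitor-like cells, against 27.4% for SSC-like and 25.6% for differentiating-like cells. The somatic classes spanned a wider range, with 32.9% for peritubular myoid-like, 31.7% for stromal-like, 27.6% for T cell-like, 21.9% for Sertoli-like and 18.7% for macrophage-like cells. By the share of all UMIs, macrophage-like cells were thus lowest and peritubular myoid-like cells highest. Over UMIs outside the mitochondrial genes, progenitor-like cells had 34.14% and peritubular myoid-like cells 34.00%, so the highest class depended on the denominator. Macrophage-like cells stayed lowest at 19.5%. Neighbours that counting error did not separate were progenitor-like and stromal-like cells (log2 ratio -0.0017, interval -0.0075 to 0.0041) and SSC-like and T cell-like cells (-0.011, interval -0.0247 to 0.0027). By counting error alone, the first of these ties rested on the hemoglobin-rich barcode. Without it the progenitor-like share was 31.96% (interval 31.88 to 32.04%), beside 31.73% (31.66 to 31.80%) for stromal-like cells. These intervals leave out the spread between cells. With that barcode kept, a progenitor-like cell had the higher share in 53.6% of pairings with a stromal-like cell. The order of these classes is therefore not read as a difference.

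The spread between single cells showed how far these classes overlap. For SSC-like cells the share per cell had a median of 27.3% and ran from 21.9% at the 5th to 32.8% at the 95th percentile. For progenitor-like cells the median was 32.01%, with percentiles of 26.7% and 37.3%, and for differentiating-like cells 25.8%, with percentiles of 21.3% and 31.7%. A progenitor-like cell had the higher share in 83.5% of all pairings with an SSC-like cell, and a differentiating-like cell had it in 37.3% of such pairings. Stromal-like cells were more spread, with an SD over cells of 7.24 percentage points against 3.33 for SSC-like cells.

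**Figure D1:**
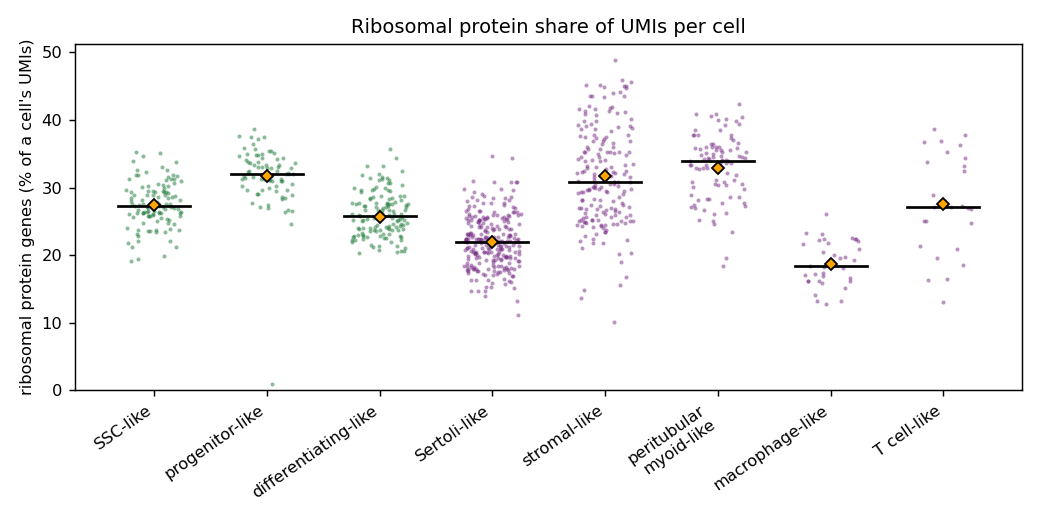
Share of each cell's UMIs that came from the 87 ribosomal protein genes, in percent, for 3 germ classes (green) and 5 somatic classes (purple). Points are cells, black lines the median over cells and orange diamonds the share of the summed UMIs, and progenitor-like cells lie above the other germ classes at a summed share of 31.7%, while the point near 0 is the hemoglobin-rich barcode at 0.968%.

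Germ cells as a whole had a slightly higher share than somatic cells, 28.0% against 26.3%, a log2 ratio of 0.09 (interval 0.0841 to 0.0906). This small difference reversed to -0.0424 (interval -0.0505 to -0.0343) when the limit on mitochondrial UMIs was set at 5% instead of 10%, which left 67 germ cells, 49 of them from the shallow cluster. Mitochondrial genes took 6.81% of the UMIs of germ cells and 4.57% of those of somatic cells, and leaving them out of the total gave a log2 ratio of 0.12. The pooled ratio also depends on which somatic cells were captured, 255 of the 596 being Sertoli-like. SSC-like cells were above Sertoli-like cells (log2 ratio 0.32) but below stromal-like cells (-0.21). Differentiating-like cells had a lower share than SSC-like cells (log2 ratio -0.09, interval -0.1004 to -0.0893), also without the shallow cells (-0.11). Progenitor-like cells had a higher share than SSC-like cells (log2 ratio 0.21, interval 0.21 to 0.22). Leaving the hemoglobin-rich barcode out of the progenitor-like cells gave 31.96%.

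Most members followed this order of the germ stages. Of the 86 members with at least 100 UMIs in germ cells, 72 had their highest level in progenitor-like cells, 11 in differentiating-like and 3 in SSC-like cells. Over all 6064 genes with as many UMIs the highest level lay in progenitor-like cells for 25.3%, in differentiating-like cells for 48.7% and in SSC-like cells for 25.9%. The lowest level lay in differentiating-like cells for 61 of the 86 members, beside 30.6% of the 6064 genes. Across all 8 classes, 60 members were lowest in macrophage-like cells (28.0% of 9073 genes), 34 were highest in progenitor-like cells (10.9%) and 30 in peritubular myoid-like cells (7.09%). The ratio of Rpl to Rps UMIs varied little, from 1.27 in differentiating-like to 1.37 in stromal-like cells.

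The levels of single members are given as counts per 1000000 UMIs (CPM) summed over the cells of a class. They count molecules at the 3′ end and are not divided by gene length. Every member had at least 1 UMI, and 85 had a UMI in each of the 8 classes. The members with the most UMIs were Rpl41 with 94160, Rps28 with 68328, Rps29 with 64495, Rpl13a with 64058 and Rps19 with 61072, and these 5 held 11.9% of all member UMIs. Rpl41 encodes the shortest protein of the large subunit, and Rps19 is the gene first linked to Diamond-Blackfan anemia. Paralogs stood at the low end, with 25 UMIs for Rpl3l, 495 for Rpl10l, 979 for Rpl7l1 and 3470 for Rpl39l. Rps19bp1, which encodes a binding partner of Rps19 and no ribosomal protein, entered by its name and had 1011 UMIs.

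Rpl39l and Rpl10l had the highest ratios of germ over somatic cells among the 86 members with at least 100 UMIs, and their intervals overlapped. For Rpl39l, SSC-like cells had 708 CPM (interval 675 to 741), progenitor-like cells 677 CPM (635 to 722) and differentiating-like cells 419 CPM (388 to 451). Sertoli-like cells had 10.9 CPM, stromal-like cells 14.01, peritubular myoid-like cells 8.10, macrophage-like cells 5.81 and T cell-like cells 30.3 CPM. The germ classes lay far above all somatic classes, and SSC-like and progenitor-like cells did not differ beyond their intervals. The log2 ratio of Rpl39l in germ over somatic cells was 5.73 (interval 5.37 to 6.12). The somatic level was 0.0189 of the germ level, while the 6 germ cell markers (Ddx4, Dazl, Zbtb16, Sohlh1, Taf4b, Tdrd1) had somatic levels of 0.0186 to 0.0978 of their germ levels. The somatic level of Rpl39l, relative to germ cells, therefore lay within the range of these markers. Its somatic UMIs are not read as expression here, and whether they are carried-over germ cell RNA was not tested.

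Rpl39 ran the other way. Its level was 1098 CPM for SSC-like, 884 CPM for progenitor-like and 555 CPM for differentiating-like cells, whereas it reached 3178 CPM for Sertoli-like, 5904 CPM for stromal-like, 5656 CPM for peritubular myoid-like, 2821 CPM for macrophage-like and 4363 CPM for T cell-like cells. Each germ class was below each somatic class, and the log2 ratio of germ over somatic cells was -2.31 (interval -2.35 to -2.26). As a share of the UMIs of both genes, Rpl39l made up 39.2% for SSC-like (interval 37.8 to 40.6%), 43.4% for progenitor-like (41.3 to 45.5%) and 43.0% for differentiating-like cells (40.6 to 45.4%), or 41.1% without the shallow cells. Over all germ cells it was 3408 of 8303 UMIs, or 41.0%, and over somatic cells 62 of 23415, or 0.265% (interval 0.203 to 0.339%). The sum of the pair was not level across classes, at 1495 CPM in germ and 4369 CPM in somatic cells.

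Nearly every germ cell carried Rpl39l. With each cell thinned to 5000 UMIs, a UMI of Rpl39l was found in all 112 SSC-like cells, in 65 of 70 progenitor-like cells (92.9%) and in 80 of 97 differentiating-like cells (82.5%), against 43 of 548 somatic cells (7.85%). Shallower cells were left out, 45 germ and 48 somatic. Without thinning the shares were 96.3% of germ cells at a median of 18216.5 UMIs and 9.56% of somatic cells at a median of 8193.5 UMIs.

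The differentiating-like class was made of clusters of 101 and 32 cells, and these differed in the balance of the pair. In the cluster of 101 cells, led by Stra8 and Crabp1, Rpl39 had 317 CPM (interval 286 to 349) and Rpl39l 474 CPM (437 to 514), so that Rpl39l made up 60.0% (56.8 to 63.0%). In the cluster of 32 cells, led by Esx1 and Prss50, Rpl39 had 1295 CPM (1187 to 1411) and Rpl39l 249 CPM (203 to 302), a share of 16.1% (13.3 to 19.2%). The 51 shallow cells of this class all lay in the larger cluster, and without them it had 50 cells and an Rpl39l share of 61.0% (57.5 to 64.4%). The share of 43.0% for the whole class thus averages unlike clusters. When cells were clustered from 1 random set of the UMIs and values taken from the other, the cluster holding all 32 of these cells had 82 cells. Rpl39l then made up 40.7% there and 52.8% in the other 62 differentiating-like cells. Those 62 cells were of low depth, with a median of 2054 UMIs in the set used for clustering, against 8598 for the 82 cells. The contrast between the clusters of 32 and 101 cells was thus not rechecked by this split.

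Rpl10l was distributed like Rpl39l at a lower level. Rpl10 (ENSMUSG00000008682, chrX:74270812-74273135, plus strand) encodes a protein of the large subunit needed for joining the subunits, and Rpl10l (ENSMUSG00000060499, chr12:66283379-66284401, minus strand) is an autosomal copy with 1 exon whose coding sequence is 84.7% identical. Rpl10l stood at 97.0 CPM for SSC-like (interval 85.1 to 110.0), 103 CPM for progenitor-like (87.0 to 121) and 60.1 CPM for differentiating-like cells (48.9 to 73.1). Sertoli-like cells had 2.18, stromal-like cells 1.83 and peritubular myoid-like cells 1.35 CPM, and no UMI was found in macrophage-like and T cell-like cells, where a count of 0, read as fewer than 3 counts and not as an exact interval, allows up to 5.81 and 18.2 CPM. The germ and somatic classes did not overlap. The log2 ratio of germ over somatic cells was 5.70 (interval 4.77 to 6.84), and the somatic level was 0.0192 of the germ level, again at that of the germ cell markers. With cells thinned to 5000 UMIs, 34.8% of germ and 0.730% of somatic cells had a UMI of Rpl10l (65.7% and 1.51% without thinning).

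As a share of its pair, Rpl10l made up 10.3% for SSC-like (interval 9.09 to 11.6%), 11.8% for progenitor-like (10.1 to 13.8%) and 6.58% for differentiating-like cells (5.38 to 7.94%), or 6.61% without the shallow cells. Among differentiating-like cells it was 8.67% in the larger cluster (interval 7.05 to 10.5%). In the smaller cluster it was 1.57% (0.632 to 3.20%), from 7 of 447 UMIs and given for this extent of the cluster only. Over somatic cells it was 9 of 18837 UMIs, or 0.0478%. Rpl10 was therefore the main source of the pair's UMIs in all 8 classes, although every 50-base stretch at its 3′ end also occurs in other annotated genes, among them Rpl10-ps3, so that counting may have lost or added reads.

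Rpl3l, the paralog of Rpl3 known from skeletal muscle, was detected at 25 UMIs, all of them in germ cells. SSC-like cells held 7 of these, progenitor-like cells 5 and differentiating-like cells 13, against 0 in 5358932 somatic UMIs. Set against the same limit of 3 counts, taken over all somatic cells, its level was at least 8.04-fold higher in germ cells, a bound that leaves out the counting error of the 25 UMIs. It made up 0.227% of the germ cell UMIs of the pair (interval 0.147 to 0.335%), and the limit of 3 counts allows a somatic share of up to 0.0205%, or 0.0252% by the exact interval.

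**Figure D2:**
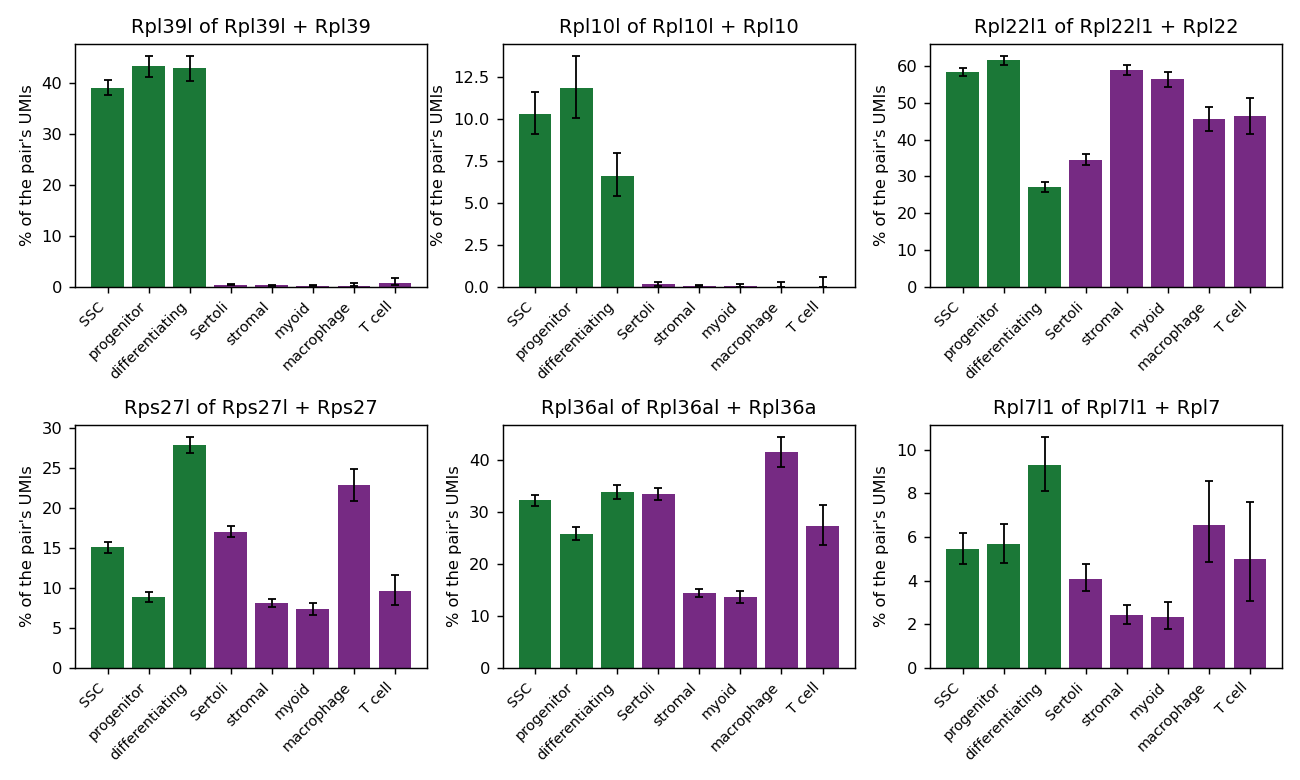
Share of each paralog in the summed UMIs of its pair, in percent, by class (green germ, purple somatic; myoid is peritubular myoid-like), with exact 95% binomial intervals for counting error. Rpl39l and Rpl10l stand out in the germ classes, at 39.2 to 43.4% and 6.58 to 11.8% of their pairs, while Rpl22l1 is lower and Rps27l higher in differentiating-like than in SSC-like cells.

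The members on the X chromosome were Rpl10, Rpl36a, Rpl39 and Rps4x. Rps4x (ENSMUSG00000031320, chrX:102184941-102189394, minus strand), which encodes a protein of the small subunit, had the lowest ratio of all members in germ against somatic cells. SSC-like cells had 387 CPM (interval 363 to 412), progenitor-like cells 638 CPM (597 to 681) and differentiating-like cells 182 CPM (162 to 203). Sertoli-like cells had 2156 CPM, stromal-like cells 5187, peritubular myoid-like cells 5341, macrophage-like cells 2017 and T cell-like cells 3878 CPM. All germ classes lay below all somatic classes (log2 ratio -3.20, interval -3.26 to -3.13). The small differentiating-like cluster had 24 UMIs of Rps4x, or 59.1 CPM (37.9 to 87.9), and the larger cluster 221 CPM, or 183 CPM without the shallow cells. The level of the small cluster depended on its extent, at 151 CPM among the 81 cells of the cluster formed with variable genes chosen by vst and 142 CPM among the 82 cells of that formed from 1 random set of the UMIs, against 449 and 396 CPM in the other differentiating-like cells. Those other cells were of low depth, 70 with a median of 4033 UMIs under vst and 62 with 2054 UMIs in the set used for clustering. These values set deeper against shallower cells, and not the small against the larger cluster.

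Rpl10 was also low throughout the germ line, with 845, 769 and 854 CPM in the SSC-like, the progenitor-like and the differentiating-like class, against 1758 CPM for Sertoli-like and 5238 CPM for stromal-like cells (log2 ratio of germ over somatic cells -2.08, interval -2.13 to -2.04). Rpl36a (ENSMUSG00000079435, chrX:134585654-134588062, plus strand), whose protein contacts transfer RNA leaving the ribosome, differed least of the X-linked members, with 1787, 2193 and 1854 CPM in the same germ classes. It had 1669.7 CPM in Sertoli-like and 1244 CPM in macrophage-like cells, both below the germ classes, but 3876 CPM in the stromal-like and 3815 CPM in the peritubular myoid-like class, both above (log2 ratio -0.46, interval -0.49 to -0.42). All 50-base stretches at its 3′ end are shared with other annotated genes, such as Rpl36a-ps1.

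Of these X-linked members, 3 of 4 were lower in germ cells by 1.5-fold or more, and of the 82 autosomal members tested 3 were lower and 10 higher. Over all 9073 genes with at least 100 UMIs in the cells compared, 35.1% were higher in germ cells and 31.6% lower by as much. Among other genes of the X chromosome 45.7% of 341 were lower (median log2 ratio -0.42, middle 50% from -2.00 to 1.11), against 31.3% of 8619 other autosomal genes (median 0.13). The median over the 4 X-linked members was -2.20. Markers of somatic cells were also counted in germ cells. The 21 markers of Sertoli, stromal and peritubular myoid cells had germ levels of 0.00115 to 0.0333 of the level in their own class, with none at 0, and levels of up to 0.0447 in SSC-like and 0.0223 in differentiating-like cells. Relative to stromal-like cells, Rps4x stood at 0.0746 in SSC-like and 0.0350 in differentiating-like cells, Rpl39 at 0.186 and 0.0941, and Rpl10 at 0.161 and 0.163. The part of such RNA in the germ values of these members was not tested.

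**Figure D3:**
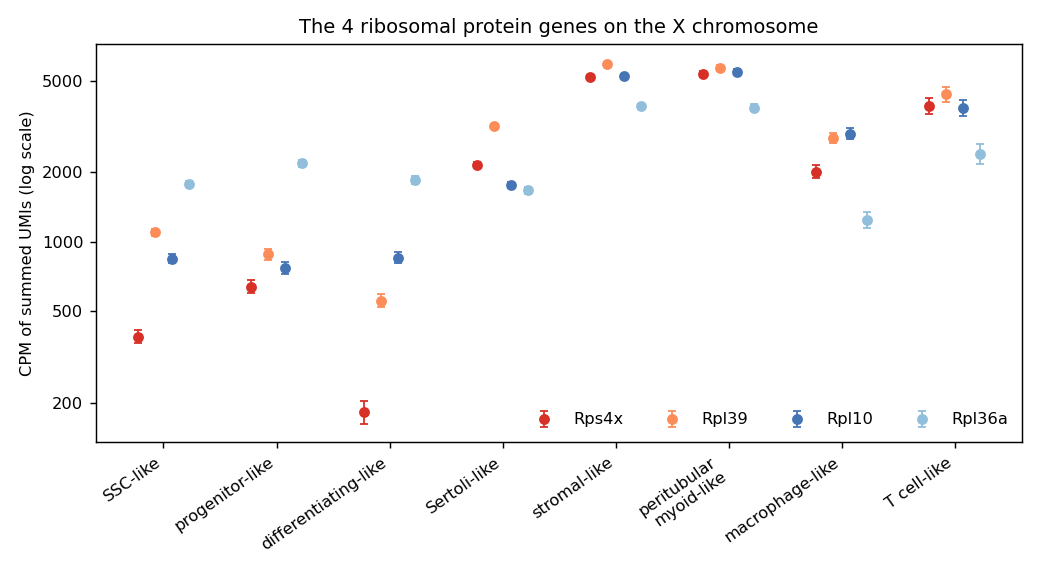
Levels of the 4 X-linked members by class, as CPM of summed UMIs on a log axis, with exact 95% Poisson intervals for counting error. Rps4x, Rpl39 and Rpl10 lie lower in each germ class than in any somatic class, and Rps4x reaches its lowest level, 182 CPM, in differentiating-like cells.

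Across the whole set, the ratio of germ over somatic cells lay in a narrower range for the members, which have many UMIs each, than for genes at large. The median log2 ratio was 0.14 over the 86 members with at least 100 UMIs in the cells compared, with the middle 50% from -0.15 to 0.38, beside a median of 0.12 and a middle 50% from -0.98 to 0.94 over all genes tested. By 1.5-fold or more, 10 members were higher in germ cells and 6 were lower, beside 35.1% and 31.6% of all genes. The members higher in germ cells beside Rpl39l and Rpl10l included Rplp2, Rps2, Rpl12, Rpsa, Rps21, Rps28 and Rpl14, and those lower beside the X-linked Rps4x, Rpl39 and Rpl10 were Rpl11, Rps9 and Rpl9. On the log2 scale the limit is 0.585 in either direction. The nearest members past it were Rpl14 at 0.67 and Rpl9 at -0.70, while Rpl4 at 0.57 and Rpl7 at -0.57 fell just short of it.

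The highest of these after the paralogs was Rplp2, which encodes a P protein of the stalk that recruits translation factors. It had 6724, 7319 and 7221 CPM in the SSC-like, the progenitor-like and the differentiating-like class, against 3560.2 CPM for Sertoli-like, 3943 CPM for stromal-like and 2961 CPM for macrophage-like cells, a log2 ratio of 0.92 (interval 0.90 to 0.95). Its partner Rplp1 had a log2 ratio of 0.54, and Rplp0, which anchors both, of 0.26. Rps2, a protein of the mRNA entry site, had 5537, 5785 and 5189 CPM in the germ classes against 2046 CPM in Sertoli-like and 3920.3 CPM in stromal-like cells (log2 ratio 0.90, interval 0.87 to 0.92). Rplp2 and Rps2 each lay higher in all 3 germ classes than in all 5 somatic classes.

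On the low side, Rpl11, known for binding the p53 regulator Mdm2, had 1572, 1807 and 1187 CPM in the SSC-like, the progenitor-like and the differentiating-like class, and 2097 to 3479 CPM over the somatic classes (log2 ratio -0.92, interval -0.95 to -0.88). Rps9, a small subunit protein, had 1747, 1988 and 1518 CPM in the germ classes and 2166 to 4084 CPM over the somatic classes (log2 ratio -0.83, interval -0.86 to -0.79). For Rpl11 and for Rps9 the germ and somatic classes did not overlap. As a share of the member UMIs alone, which removes the difference in the summed share, the log2 ratios were 0.83 for Rplp2, 0.81 for Rps2, -1.002 for Rpl11, -0.91 for Rps9 and -3.28 for Rps4x.

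Between the germ stages fewer members differed. From SSC-like to differentiating-like cells, 1 member was higher by 1.5-fold or more, Rps27l, and 5 were lower, Rpl22l1, Rps4x, Rpl39, Rpl39l and Rpl10l, of 86 tested. Over all 5134 genes tested 14.2% were higher and 10.1% lower by as much. All 6 of these members are paralogs or lie on the X chromosome, but so do Rpl10, Rpl36a, Rpl36al, Rpl7l1 and Rps27rt, which did not pass. Among other genes of the X chromosome 11.9% of 168 were lower by as much (median log2 ratio 0.14). This was near the 10.1% of 4862 other autosomal genes (median 0.09). The median log2 ratio was -0.12 over the members and 0.09 over all genes. The nearest member that fell short of the limit was Rpl4 at -0.58. Without the shallow cells Rpl4 (-0.68) and Rpl3 (-0.65) also passed it, neither of which is X-linked or one of the paralogs. Rps4x stood at -1.09 (interval -1.28 to -0.90), Rpl39 at -0.98 (-1.09 to -0.88), Rpl39l at -0.76 (-0.88 to -0.63) and Rpl10l at -0.69 (-1.04 to -0.35). With clusters from 1 set of UMIs and values from the other, Rpl10l at -0.46 was no longer past the limit, while the other 5 were. In that split the ratios of Rps4x and Rpl39 moved to -1.54 and -1.19. Also in that split, 13 T cell-like cells fell into the SSC-like class. The T cell-like class had no UMI of Rpl10l and high levels of Rps4x and Rpl39. The part of these 13 cells in the changed ratios was not tested. Without the shallow cells the ratios were -1.39 for Rps4x, -0.89 for Rpl39, -0.77 for Rpl39l and -0.75 for Rpl10l.

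Rpl22l1 had the lowest ratio. SSC-like cells had 1785 CPM (interval 1733 to 1839), progenitor-like cells 2384 CPM (2304 to 2466) and differentiating-like cells 666 CPM (627 to 706), a log2 ratio of differentiating-like over SSC-like cells of -1.42 (interval -1.52 to -1.33), and -1.60 without the shallow cells. Sertoli-like cells had 651 CPM, macrophage-like cells 779, T cell-like cells 1169, peritubular myoid-like cells 1658 and stromal-like cells 1755 CPM. Its canonical gene Rpl22, which encodes an RNA-binding protein of the large subunit, went the other way, with 1276, 1489 and 1791 CPM in the germ classes (log2 ratio 0.49, interval 0.42 to 0.56). The somatic levels of Rpl22, 930.1 to 1351 CPM, lay close together.

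The share of Rpl22l1 in this pair was 58.3% for SSC-like (interval 57.2 to 59.4%), 61.6% for progenitor-like (60.2 to 62.8%) and 27.1% for differentiating-like cells (25.8 to 28.5%), or 24.4% without the shallow cells. It was 33.9% in the larger and 11.2% in the smaller differentiating-like cluster. Somatic classes ranged from 34.5% for Sertoli-like to 59.0% for stromal-like cells. Over single cells the median level was 17.3 UMIs per 10000 for SSC-like, 22.5 for progenitor-like and 4.20 for differentiating-like cells, and since the 95th percentile of the last was 21.4 the classes overlapped.

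Rps27l showed the opposite order. Progenitor-like cells were lowest at 449 CPM (interval 414 to 485), SSC-like cells had 639 CPM (608 to 671) and differentiating-like cells 1283 CPM (1229 to 1338), a log2 ratio of differentiating-like over SSC-like cells of 1.01 (interval 0.91 to 1.10) and of 1.06 without the shallow cells. Among somatic classes Sertoli-like cells were highest at 921 CPM and peritubular myoid-like cells lowest at 467 CPM. Rps27 itself had 3600.0, 4634 and 3314 CPM in the SSC-like, the progenitor-like and the differentiating-like class, so Rps27l made up 15.1%, 8.83% and 27.9% of the pair, the last 28.1% without the shallow cells. Rps27l and Rpl22l1 thus lay in opposite order across the germ stages.

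The other members ranked highest in differentiating-like over SSC-like cells as a share of member UMIs were Rpl22, Rpl7l1, Rpl27a and Rpl36. Rpl7l1, the paralog of Rpl7, had 89.3, 109 and 119.6 CPM in the SSC-like, the progenitor-like and the differentiating-like class and made up 5.46%, 5.66% and 9.28% of its pair. Rpl27a and Rpl36, both of the large subunit, had 3134, 3411 and 3778 CPM and 2355, 2889 and 2711 CPM. On the scale of CPM the log2 ratios of Rpl7l1, Rpl27a and Rpl36 were 0.42 (interval 0.14 to 0.70), 0.27 (0.22 to 0.32) and 0.20 (0.15 to 0.26), all under the limit of 1.5-fold.

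The remaining pair is Rpl36a and Rpl36al, a paralog on chromosome 12. Rpl36al had 851, 766 and 953 CPM in the SSC-like, the progenitor-like and the differentiating-like class, near the 842 CPM of Sertoli-like and above the 654 CPM of stromal-like cells. Its share of the pair was 32.3%, 25.9% and 34.0% in the germ classes, 33.5% in Sertoli-like and 14.4% in stromal-like cells. This autosomal paralog of an X-linked gene was thus present in all somatic classes. The somatic levels of Rpl39l and Rpl10l, relative to germ cells, lay within the range of the germ cell markers. The apparent share of Rps27rt against Rps27 lay between 11.6 and 14.8% in all 8 classes.

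**Figure D4:**
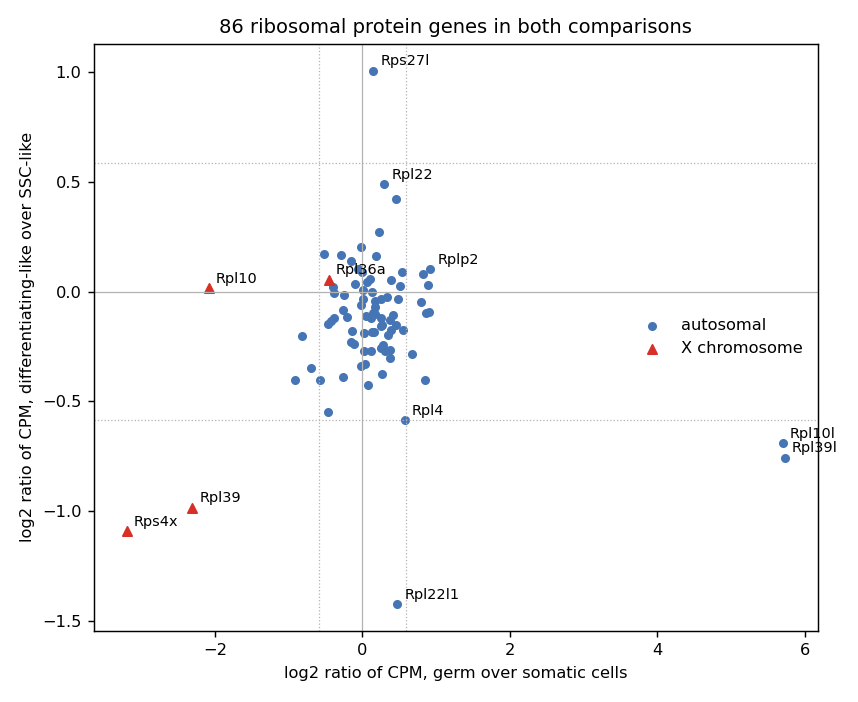
Log2 ratio of CPM in germ over somatic cells (x axis) and in differentiating-like over SSC-like cells (y axis) for the 86 members with at least 100 UMIs in each comparison. Triangles are X-linked members and dotted lines mark 1.5-fold, and most members lie near the centre, while Rps4x, Rpl39, Rpl10, Rpl39l, Rpl10l, Rpl22l1 and Rps27l lie apart.

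Other genes of translation were compared by list. Of ribosomal protein genes whose names fall outside the rule, Fau had a log2 ratio of germ over somatic cells of -0.02 and Gnb2l1 of -0.05. Of 6 elongation genes 1 was higher by 1.5-fold, Eif5a at 1.08, none was lower, and Eef1a1, which carries transfer RNA to the ribosome, stood at -0.41. Of 28 initiation genes 14 were higher and 5 lower (median 0.57), among them Eif3g at 1.62 and Eif5 at 1.61 on the high side and Eif4a2 at -1.83 and Eif3e at -1.08 on the low side. All 3 genes of the list named nascent chain were lower. Btf3 at -1.22 and Naca at -0.80 are the subunits of the nascent polypeptide-associated complex. Tpt1, at -1.35, was put on this list but is not a subunit of that complex. Of 28 genes of ribosome assembly 24 were higher and 1 was lower, Polr1a at -0.71, with a median of 1.31. They included nucleolin (Ncl) at 1.84, fibrillarin (Fbl) at 1.48 and nucleophosmin (Npm1) at 1.06, all proteins of the nucleolus. Of the 76 mitochondrial ribosomal protein genes tested, 36 were higher and 5 lower (median 0.50), beside 35.1% and 31.6% of all genes. Of the 6 listed hosts of small nucleolar RNAs 2 were found, Snhg6 at -0.02 and Snhg12 at -2.07.

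Between differentiating-like and SSC-like cells these lists differed little, with median log2 ratios of -0.14 for elongation, 0.23 for initiation, -0.17 for nascent chains, 0.10 for assembly and 0.19 for mitochondrial ribosomal proteins, beside 0.09 for all genes. By 1.5-fold or more, 5 of 27 initiation genes were higher and 1 lower, and 2 of 25 assembly genes were higher and 3 lower. No gene of the elongation list or of the list named nascent chain passed. Of the mitochondrial ribosomal protein genes 6 of 74 were higher and 2 lower, beside 14.2% and 10.1% of all genes. Without the shallow cells 2 elongation genes were lower and no assembly gene was higher.

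**Figure D5:**
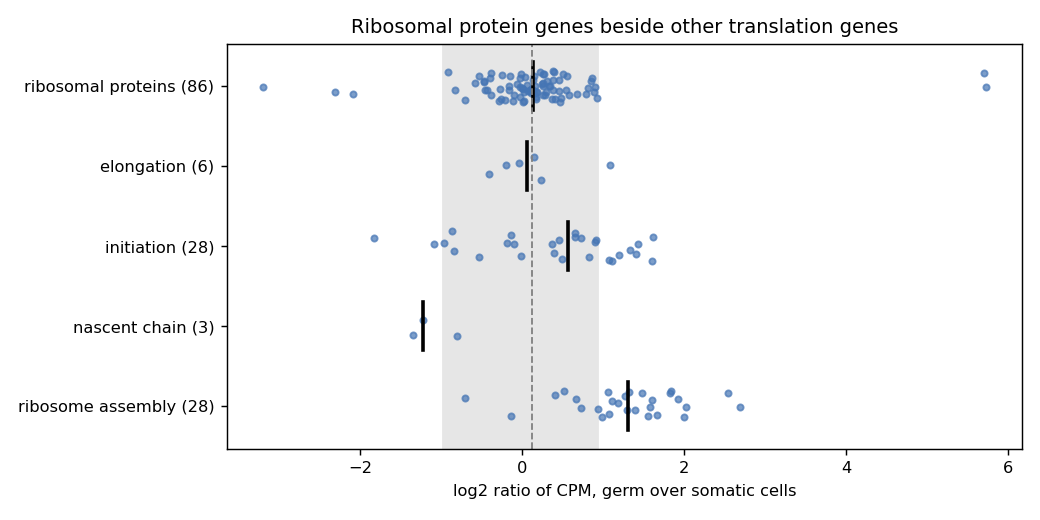
Log2 ratio of CPM in germ over somatic cells for the ribosomal protein genes and 4 lists of other translation genes, with the number of genes tested in brackets. Points are genes and black bars medians, the grey band is the middle 50% of all 9073 genes tested and the dashed line their median, and assembly genes lie to the right, with a median of 1.31 against 0.14 for the ribosomal protein genes.

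A feature that the rule did not use is the run of pyrimidines at the start of the transcript, through which translation of these mRNAs is known to be adjusted to growth signals. A run of at least 7 C or T, on the strand of the gene and within 20 bases on either side of a RefSeq start site (GRCm38.p6), was found for 40 of 69 members with a start (58.0%), against 27.5% of 27025 genes. Windows of 30 bases around the start are shown for some of the members named above, with their longest run of C or T in capitals. Among those shown, members low in germ cells (Rpl39, Rpl10, Rps4x) and high in them (Rpl39l, Rpl10l) occur with longer and with shorter runs. Rpl22l1 is the member with the lowest ratio of differentiating-like over SSC-like cells. Rps27l, which is not shown, had longest runs of 9 and 4 bases at its start sites.
Rpl39 (chrX:37085208-37085237, minus): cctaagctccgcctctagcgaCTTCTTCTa
Rpl39l (chr16:10170213-10170242, plus): ctcccaggCCTTTCCggatttccggtggtc
Rpl10 (chrX:74270801-74270830, plus): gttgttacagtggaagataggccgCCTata
Rpl10l (chr12:66284387-66284416, minus): tttggCCTCCattttgcggctggcggtggg
Rps4x (chrX:102189377-102189406, minus): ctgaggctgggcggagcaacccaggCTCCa
Rpl22l1 (chr3:28805493-28805522, plus): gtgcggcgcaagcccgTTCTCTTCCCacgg
The longest runs in these windows were 8, 7, 3, 5, 4 and 10 bases. A match is a description of the letters, and the lack of a run says only that these letters are not in the window.

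Many members have processed copies elsewhere in the genome. Over the 86 members with a coding transcript, a median of 52.7% of the 50-base stretches in the last 400 bases also occur in another annotated gene, with 19 members at 0 and 45 above 50%. Counting could therefore split or drop reads of many members, and the order of members by UMIs given above is one of counted molecules. Rpl6l, annotated as a processed pseudogene, had 8383 UMIs, and the 16 listed names with -ps, which are not members, had 45088.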

How the data were processed

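The authors aligned reads to mm10 with Cell Ranger 2.1.0, per the submitters' processing notes, and deposited raw UMI counts per gene and barcode, without normalization. Of 970 barcodes, 10 had fewer than 500 genes, 36 had 10% or more of their UMIs from mitochondrial genes and 4 were called doublets by scrublet (scanpy 1.11.5, expected rate 0.01). These barcodes were left out. With Seurat 5.3.0 in R 4.3.3, genes in at least 3 cells were log-normalized to 10000 UMIs, variable genes were chosen by mean.var.plot without the ribosomal protein genes, and clusters were made from 14 principal components (resolution 0.5). Germ cells were clustered again. A cluster took the class with the highest mean log-normalized marker expression relative to other cells, and stayed unnamed with fewer than 3 markers detected in 10% of its cells or with more markers of another class among its top 10 genes. These were ranked by the difference in mean log-normalized expression, chosen after 1 hemoglobin-rich barcode had left the largest germ cluster unnamed under another ranking.

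UMIs were summed per class. Levels have exact Poisson, shares exact binomial (Clopper-Pearson) and ratios exact conditional binomial intervals at 95%. A gene counted as higher or lower at a ratio of 1.5-fold with at least 100 UMIs in the cells compared. The ratio script was checked on simulated counts. Named were both genes of each paralog pair, X-linked members, the 5 members with the most UMIs, the 5 highest and 5 lowest in each comparison by share of member UMIs, and other translation genes by list. The members and lists were chosen with earlier results of these data known. Positions and coding sequences are from GENCODE on GRCm38, the assembly of mm10, and start sites from RefSeq. Rps4l and the protein sequences were not analysed here, and some items that the naming rule selects are not reported here. In all, 16 alternatives were planned and 1 was added later.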

Additional observations from a re-analysis of the deposited data

How the results depend on the processing

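No paired analysis was possible because the series gave 1 library here, and for the same reason nothing shows how values vary between mice. Of 76 recomputed values, 57 stayed within the counting interval or, for counts of genes, within 1.5 times of the value given, 18 moved and 1 reversed. The reversed value was the log2 ratio of the summed share in germ over somatic cells, -0.0424 with a mitochondrial limit of 5%. The cause was not tested, and that limit kept 67 of 324 germ cells. This ratio, 0.0874, became 0.0936 with 2000 variable genes by vst, 0.0979 with the count split (clusters from 1 set of UMIs, values from the other), 0.12 over UMIs outside the mitochondrial genes and 0.11 for the median over cells. For differentiating-like over SSC-like cells the ratio, -0.0949, became -0.1094 without a mitochondrial limit, -0.1089 without the shallow germ cluster (chosen after seeing the data), -0.1096 over UMIs outside the mitochondrial genes, -0.0860 with at least 1000 genes a cell and without the hemoglobin-rich barcode, -0.0855 with the count split, -0.0831 at a resolution of 1.0 and -0.0789 for the median over cells. The limit of 1000 genes left out only the hemoglobin-rich barcode, which had 850 genes. Both of these alternatives therefore used the same 919 cells, and the values of each are counted among the 76. In the count split 13 T cell-like cells fell into the SSC-like class. A resolution of 0.3 and the 5% limit gave no value for this comparison. With a fold of 2 in place of 1.5, 5 members passed between germ and somatic cells instead of 16, and 3 between differentiating-like and SSC-like cells instead of 6. The other alternatives gave 16 to 20 and 5 to 8. The share of all genes passing a fold of 2 is not given here, so the counts at that fold have no background beside them. The Rpl39l share of its pair in germ cells, 41.0%, was 44.6% with the 5% limit, 39.6% with the count split and 39.5% after thinning to 5000 UMIs, and in somatic cells it was 0.369% after thinning against 0.265%.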
